A study of Homo sapiens with 2 samples.

Results

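The genes FOXA1, FOXA2 and FOXA3 encode the 3 forkhead box A transcription factors, and the accessible chromatin at and around each of them was measured by ATAC-seq in CAMA-1 cells. A locus was taken as the GENCODE gene body in hg38 with 100 kb on either side, and its members were the peaks that overlapped it. These windows held 95 of the 245736 peaks of replicate 1 and 109 of the 259745 peaks of replicate 2. Merging peaks that shared at least 1 bp gave 113 regions, of which 88 had a peak in both replicates, out of 215195 such regions in the genome.

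CAMA-1 is an established human breast cancer cell line of luminal type. Both biological replicates were untreated adherent cultures in DMEM with fetal bovine serum, each of 50000 cells, so the series held 1 line in 1 condition and the comparisons lie between genes, not between groups of samples. In ATAC-seq the Tn5 transposase inserts adapters into DNA that nucleosomes leave exposed, and peaks mark stretches with many insertions. RNA data of the study were not analysed here, and accessibility is the only readout given for these genes.

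FOXA proteins bind forkhead motifs on nucleosomal DNA through a winged-helix domain and are called pioneer factors because they can open chromatin for other factors. FOXA1 is a lineage factor of luminal mammary cells, where it works beside the estrogen receptor and GATA3. FOXA2 and FOXA3 are best known from endoderm and its derivatives, with roles in liver, lung, pancreas and gut, and FOXA3 is the paralog tied most closely to hepatocytes.

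Peak height was the measure of accessibility. It is the largest number of stacked reads in a peak, recovered from the deposited fold enrichment, and its median over all peaks was 35 in each replicate. Intervals given for heights are exact Poisson 95% intervals within 1 replicate and cover counting error only. Peaks and genes are not replicates and each locus had 2 values, so no test between loci was run, and paralogs are compared by whether these intervals overlap within each replicate.

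The sequences of accessible sites that the results turn on are given first. They come from the hg38 plus strand, except the FOXA1 promoter, which is the RefSeq sequence of the gene's minus strand (GRCh38.p14, the 250 bases before the start site). Capitals mark matches to any of 5 motifs searched on both strands: FOX, GATA, AP-1, AP-2 and the estrogen response element. The FOX motif was searched as TGTTTAC and, as its common variant, as TATTTAC. The GATA motif was searched as TGATAA and also in the form AGATAA. The AP-1 motif was TGANTCA, where N is any base. For AP-2 the palindrome searched was GCCNNNGGC, and for the estrogen receptor it was the full response element GGTCANNNTGACC. Matches of different motifs may overlap and were counted separately. The first pair are the sequences behind the highest start-site peaks of FOXA1 and FOXA3, and neither held a match.
FOXA1 promoter, chr14:37595250-37595499: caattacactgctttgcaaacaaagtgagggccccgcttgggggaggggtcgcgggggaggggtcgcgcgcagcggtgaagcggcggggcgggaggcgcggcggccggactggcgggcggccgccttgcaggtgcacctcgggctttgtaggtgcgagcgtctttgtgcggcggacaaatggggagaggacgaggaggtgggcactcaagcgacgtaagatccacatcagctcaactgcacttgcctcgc
FOXA3 upstream peak, chr19:45863196-45863495: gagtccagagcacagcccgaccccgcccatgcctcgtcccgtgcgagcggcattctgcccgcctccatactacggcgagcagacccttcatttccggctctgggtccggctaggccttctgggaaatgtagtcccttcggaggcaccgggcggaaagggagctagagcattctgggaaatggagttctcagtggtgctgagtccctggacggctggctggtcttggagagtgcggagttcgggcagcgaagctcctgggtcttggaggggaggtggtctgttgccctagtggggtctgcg

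The next stretches are the middle 300 bases of distal regions and of the strongest region near FOXA2. Those at 3.79 and 55.5 kb are the highest distal regions of the FOXA1 locus, and that at 46.1 kb is its region with 2 FOX matches. The last, from the FOXA2 locus, held no match.
FOXA1, 3.79 kb upstream, chr14:37598890-37599189: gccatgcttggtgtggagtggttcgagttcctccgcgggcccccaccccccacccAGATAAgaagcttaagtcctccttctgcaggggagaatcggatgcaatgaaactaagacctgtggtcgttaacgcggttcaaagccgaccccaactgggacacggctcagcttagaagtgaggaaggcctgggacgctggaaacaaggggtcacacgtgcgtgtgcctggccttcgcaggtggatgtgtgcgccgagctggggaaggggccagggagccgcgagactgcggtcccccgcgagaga
FOXA1, 46.1 kb upstream, chr14:37641181-37641480: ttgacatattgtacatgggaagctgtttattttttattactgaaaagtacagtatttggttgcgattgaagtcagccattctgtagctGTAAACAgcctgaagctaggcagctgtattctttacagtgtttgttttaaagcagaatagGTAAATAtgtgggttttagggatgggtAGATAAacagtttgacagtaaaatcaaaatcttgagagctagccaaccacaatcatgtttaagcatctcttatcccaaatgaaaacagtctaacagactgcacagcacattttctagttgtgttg
FOXA1, 55.5 kb upstream, chr14:37650573-37650872: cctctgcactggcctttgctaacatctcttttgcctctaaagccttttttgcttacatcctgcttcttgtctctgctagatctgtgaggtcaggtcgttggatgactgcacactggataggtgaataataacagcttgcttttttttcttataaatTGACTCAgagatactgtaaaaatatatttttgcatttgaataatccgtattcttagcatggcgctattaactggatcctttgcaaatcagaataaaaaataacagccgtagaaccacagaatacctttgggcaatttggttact
FOXA2, 99.6 kb upstream, chr20:22684047-22684346: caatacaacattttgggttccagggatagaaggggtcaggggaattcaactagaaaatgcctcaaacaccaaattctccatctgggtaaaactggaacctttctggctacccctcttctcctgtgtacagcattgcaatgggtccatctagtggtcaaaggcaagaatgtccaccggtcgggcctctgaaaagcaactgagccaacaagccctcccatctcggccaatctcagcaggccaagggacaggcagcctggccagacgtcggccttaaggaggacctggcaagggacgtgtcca

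In these cells FOXA1 and FOXA3 each had a tall peak within 1 kb of a start site and FOXA2 had a weak one. The height was 368 and 407 at FOXA1, 20 and 17 at FOXA2, and 454 and 472 at FOXA3, in replicates 1 and 2. The means were 387.5 ± 27.6, 18.5 ± 2.12 and 463 ± 12.7 (SD, n = 2). Across 20033 protein-coding genes the share with such a peak in both replicates was 79.3%, so having one is the usual state and the paralogs differ in its size. The median height over these genes, with 0 for genes without a peak, was 168 and 180.

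**Figure D1:**
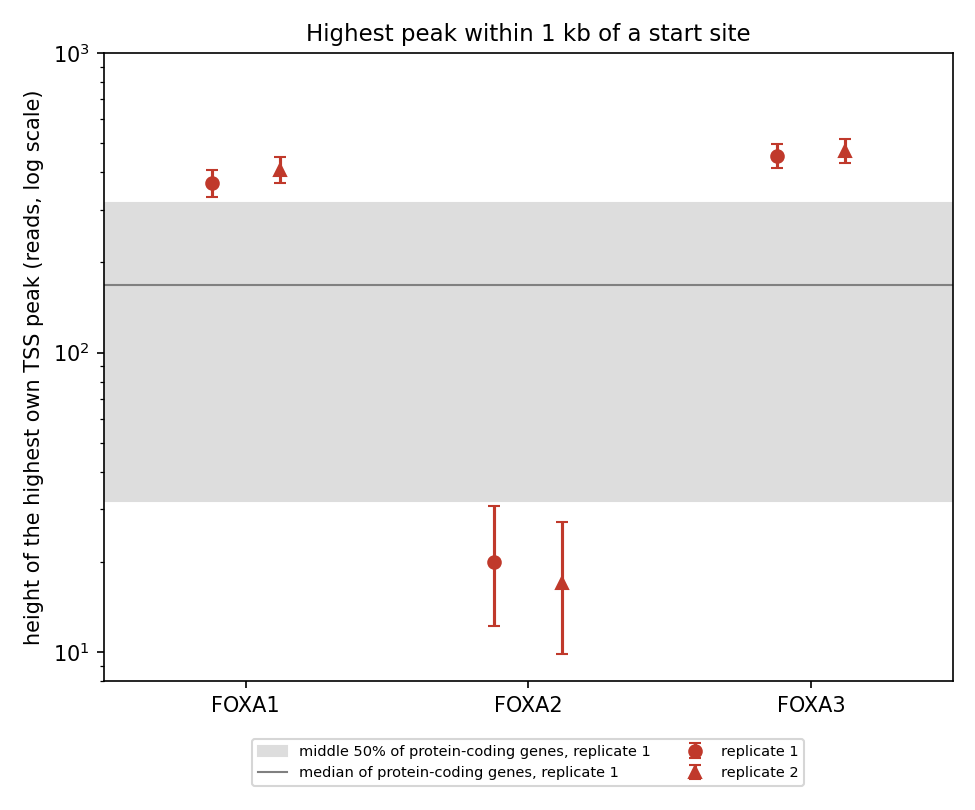
Height in reads (log axis) of the highest peak within 1 kb of a start site of each FOXA gene, with circles for replicate 1, triangles for replicate 2 and bars for the exact Poisson 95% interval. The grey band spans the middle 50% of protein-coding genes in replicate 1 and the line is their median of 168. FOXA1 and FOXA3 lie above the band and FOXA2 lies below it.

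The FOXA2 peak stood apart from both others in each replicate. Its Poisson interval was 12.2 to 30.9 reads in replicate 1 and 9.90 to 27.2 reads in replicate 2, while those of FOXA1 started at 331 and 368. The FOXA1 peak was 18.4 and 23.9 times as high as the FOXA2 peak, and the FOXA3 peak 22.7 and 27.8 times as high. Among all protein-coding genes, FOXA1 stood at percentile 81.3 and 82.8, FOXA2 at 21.7 and 20.2, and FOXA3 at 88.8 and 88.3. Among the 15890 genes with a start-site peak in both replicates, FOXA2 was at percentile 0.790, near the floor of what was called.

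FOXA1 and FOXA3 were not clearly ordered. The FOXA3 peak was 1.23 and 1.16 times as high as the FOXA1 peak. Their intervals did not overlap in replicate 1 (331 to 408 against 413 to 498) and overlapped in replicate 2 (368 to 449 against 430 to 517). When each height was divided by the median height of peaks within 5 Mb outside the window, the ratio became 1.04 and 0.928, which turned the direction of its mean. That local median was 37 and 36 around FOXA1, 35 and 35 around FOXA2 and 44 and 45 around FOXA3, and the part of DNA copy number in these levels was not tested.

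The position of the peak relative to the gene also differed. FOXA1 (ENSG00000129514.8, chr14:37589552-37596059, minus strand) has 5 annotated transcript start sites, and all 5 lay under the single tall peak in both replicates. The merged region, chr14:37594136-37596733, spanned 2598 bp. It also covered the first of the start sites of TTC6, a tetratricopeptide repeat gene that runs the opposite way and begins 380 bp from the nearest FOXA1 start. Accessibility at this shared stretch cannot be told apart between the divergent genes.

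FOXA3 (ENSG00000170608.3, chr19:45863989-45873797, plus strand) had no start site under a peak in either replicate. The tall peak counted for it, merged as chr19:45863004-45863688, lay wholly upstream. Its near edge was 301 and 309 bp from the upstream FOXA3 start site and 638 and 646 bp from the canonical one. The same region covered 7 of the 18 annotated start sites of SYMPK, including the canonical one. SYMPK encodes symplekin, a scaffold of the machinery that processes the 3′ ends of messenger RNA, and it is transcribed away from FOXA3.

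FOXA2 (ENSG00000125798.15, chr20:22580998-22585455, minus strand) likewise had neither of its 2 start sites under a peak. Its weak peak began 70 bp from the canonical start in replicate 1 and 298 bp from it in replicate 2. The merged region, chr20:22583941-22584502, had its middle in a coding exon, 351 bp downstream of the canonical start. In 65% of protein-coding genes the canonical start site lay under a peak in both replicates, and of the 3 paralogs FOXA1 did.

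The height given to FOXA3 therefore rested on a peak that lay nearer to another coding gene. When a start-site peak counted only where no other coding gene had a nearer start, a setting chosen after the data were seen, FOXA3 had none in either replicate. FOXA1 and FOXA2 had the same heights as before, and 114 of the 15890 genes lost their peak. Under a limit of 100 bp FOXA3 also had none, FOXA1 was the same, and FOXA2 had a peak in 1 replicate.

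Coverage of the gene bodies set FOXA1 apart from both other paralogs. Peaks covered 76.1% and 71.1% of the FOXA1 gene body, against 9.67% and 7.49% for FOXA2 and 4.0% and 3.2% for FOXA3. The median over protein-coding genes was 5.13% and 5.4%, which put FOXA1 at percentile 98.3 and 98.0. FOXA2 stood above this median, at percentile 67.8 and 59.8, and FOXA3 below it, at 43.0 and 35.4. The gene bodies spanned 6508, 4458 and 9809 bp, and the percentiles make no allowance for gene length. The FOXA2 share came from its weak start-site peak alone, which was 431 and 334 bp wide with 20 and 17 reads. Within FOXA3, the peaks called in both replicates were 2 weak intronic ones with heights of 22 and 19 at chr19:45865683-45865888 and of 22 and 20 at chr19:45868139-45868374.

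FOXA1 had 2 further regions within 1 kb of a start site. One, at chr14:37591154-37593291 over its large coding exon, reached 111 and 126. The other, at chr14:37596966-37597433 upstream in a TTC6 intron, reached 40 and 32. They lay 971 and 907 bp from the nearest FOXA1 start, close to the 1 kb limit, so they belong to the start-site class by a narrow margin. In replicate 2 the peak of the coding-exon region, taken alone, lay over 1 kb from every annotated start site.

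The 100 kb windows held like numbers of accessible regions around FOXA1 and FOXA3 and few around FOXA2. FOXA1 had 44 and 45 peaks in replicates 1 and 2, FOXA2 had 6 and 10, and FOXA3 had 45 and 54. The median over protein-coding genes was 33 and 35. Regions with a peak in both replicates numbered 39 at FOXA1, 6 at FOXA2 and 43 at FOXA3, at percentiles 66.4, 6.40 and 72.2.

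Most peaks of these loci were found in both replicates. At FOXA1, 41 of 44 peaks of replicate 1 and 39 of 45 of replicate 2 overlapped a peak of the other replicate. At FOXA3 these counts were 43 of 45 and 44 of 54, and at FOXA2 they were 6 of 6 and 6 of 10. Over all peaks, 90.2% of replicate 1 and 84.7% of replicate 2 were found again. Regions seen in a single replicate were low, with heights of 14 to 23 at FOXA1, 19 to 25 at FOXA2 and 14 to 32 at FOXA3.

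Heights of shared regions were also compared between replicates. The Poisson intervals overlapped in 38 of 39 regions at FOXA1, in 6 of 6 at FOXA2 and in 43 of 43 at FOXA3. The share of all shared regions with overlapping intervals is not given. At low counts the intervals are wide, 12.2 to 30.9 for 20 reads, so these counts do not set the loci apart from other regions. The FOXA1 region without overlap lay 82.9 kb downstream of the start, chr14:37512253-37512512, with 21 reads in replicate 1 and 49 in replicate 2. The median log2 ratio of replicate 2 to replicate 1 was 0.14 at FOXA1, -0.28 at FOXA2 and -0.02 at FOXA3, against 0.09 over all shared regions.

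**Figure D2:**
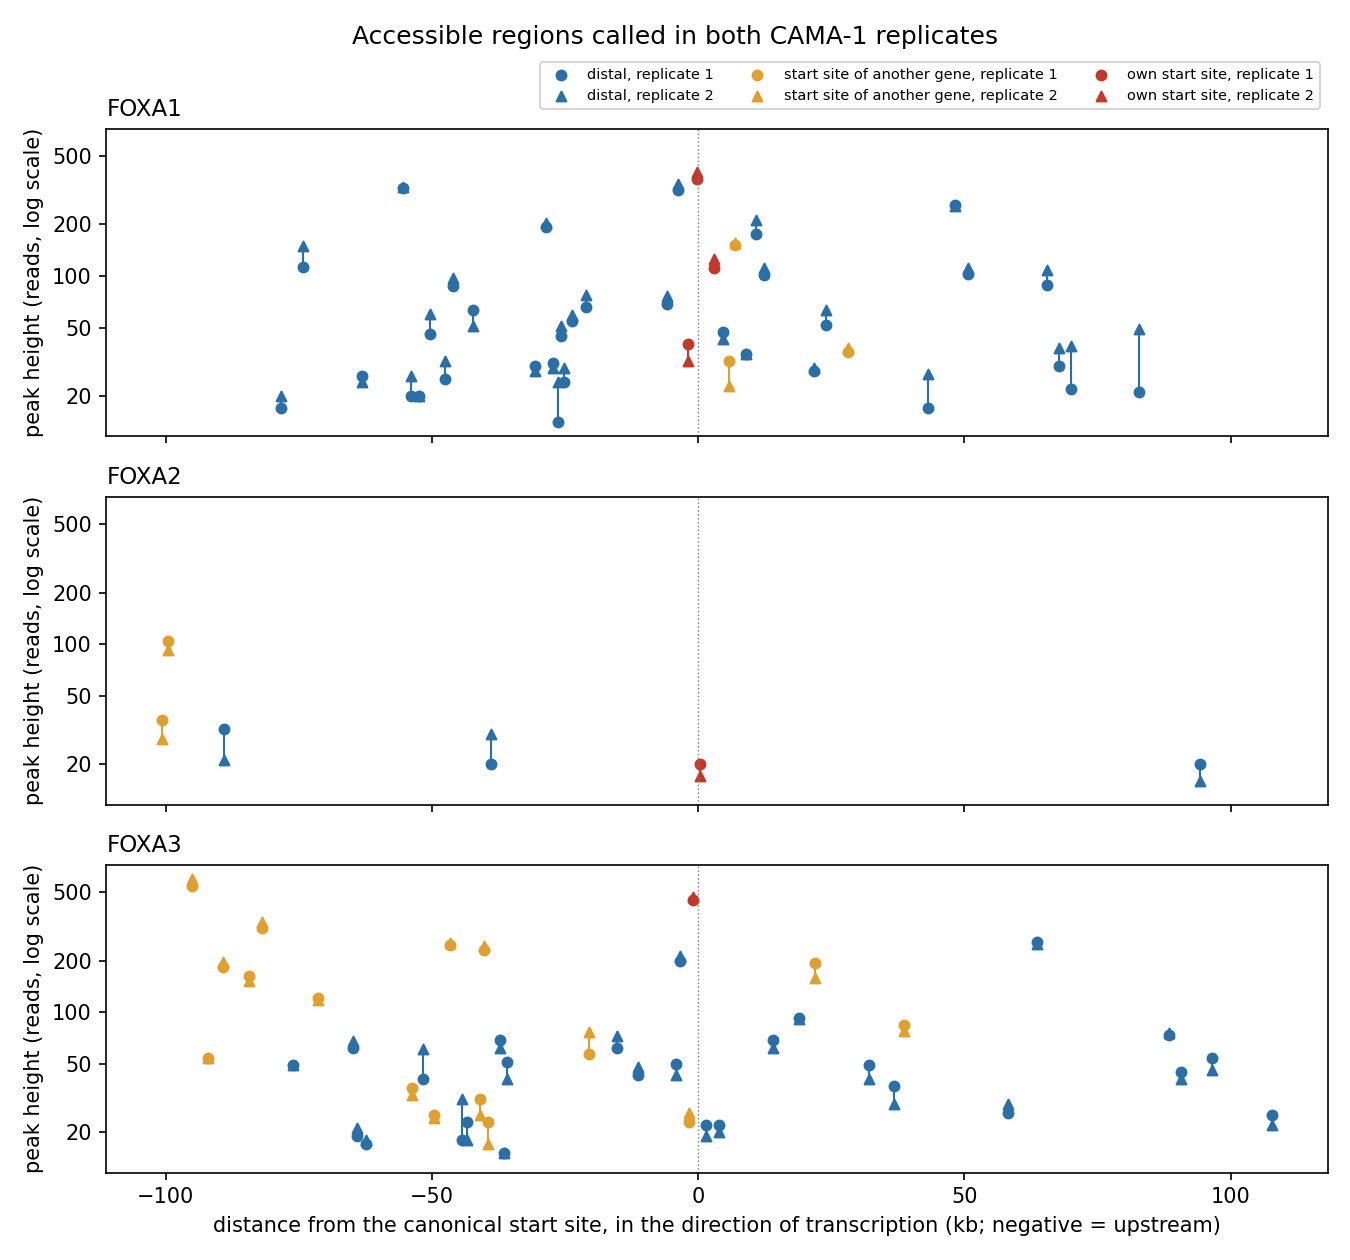
Peak height in reads (log axis) of each region called in both replicates, against the distance in kb of its middle from the canonical start site in the direction of transcription. Circles are replicate 1 and triangles replicate 2, joined by a line, and colour tells own start-site regions, regions at start sites of other genes and distal regions apart. FOXA1 has 39 regions, mostly distal, FOXA2 has 6, and 16 of the 43 at FOXA3 sit at start sites of other genes.

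The kinds of region differed between the 2 busy loci. At FOXA1, 33 of 39 regions (84.6%) were distal, meaning over 1 kb from every annotated start site. At FOXA3 26 of 43 (60.5%) were distal and 16 were near the start of another coding gene. At FOXA2 3 of 6 were distal. The share over all shared regions was 80.1%, so FOXA1 lay near the genome-wide share and FOXA3 below it.

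Gene content of the windows moved with these counts. Beside the FOXA gene, the FOXA1 window overlapped 2 coding genes, TTC6 and MIPOL1, the FOXA2 window none, and the FOXA3 window 11. The highest region of the FOXA3 window, chr19:45767288-45771334 with heights of 546 and 600, lay at the starts of DMPK, a muscle kinase gene, and SIX5, a homeobox gene. The others sat at starts of DMPK, DMWD, RSPH6A, SYMPK, IRF2BP1 and MYPOP. The part of gene density in the FOXA3 count was not tested.

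Peaks covered 27.6 ± 0.301 kb of the FOXA1 window, 2.02 ± 0.528 kb of the FOXA2 window and 30.3 ± 0.497 kb of the FOXA3 window (SD, n = 2). These are 13.3% and 13.5%, 0.806% and 1.17%, and 14.3% and 14.6% of the bases. FOXA1 and FOXA3 stood at percentiles between 81.6 and 84.4 of coding genes and FOXA2 at 6.09 and 8.31. By distance, however, the covered sequence was placed differently.

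**Figure D3:**
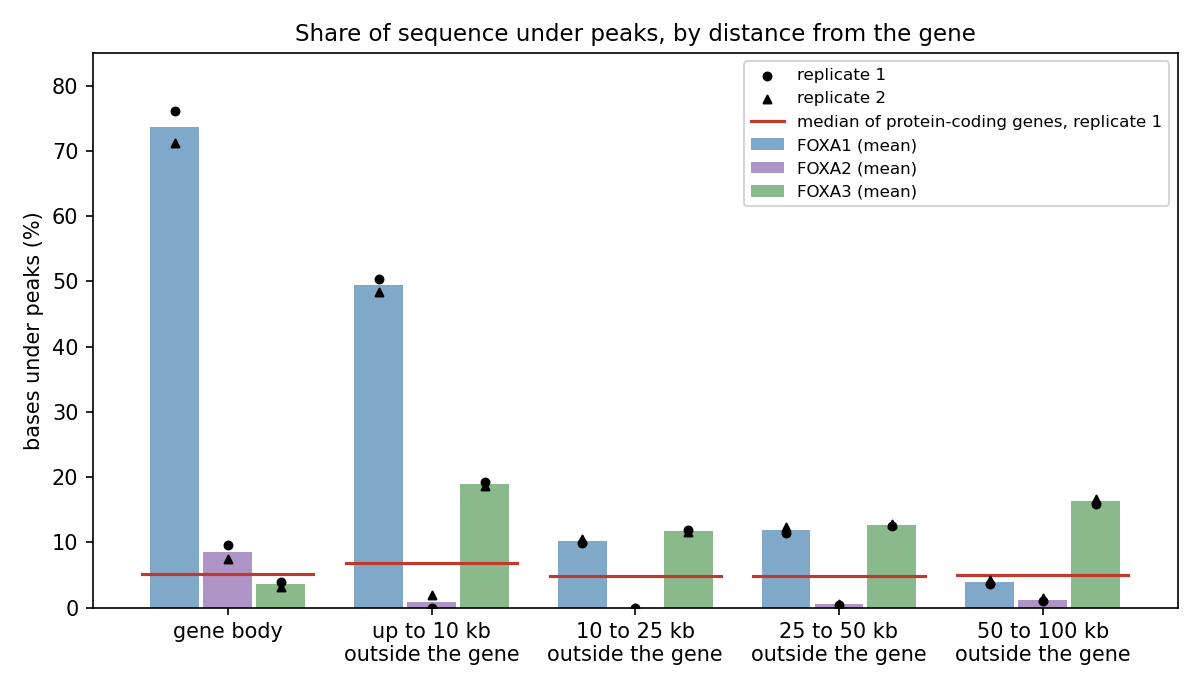
Percentage of bases under peaks in the gene body and in 4 distance bins on both sides of the gene. Bars are means of 2 replicates, black points the replicates, and red lines the medians over protein-coding genes in replicate 1. FOXA1 falls from 73.6% in the gene body to 3.96% at 50 to 100 kb, while FOXA3 is lowest in its gene body at 3.60%.

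The accessible sequence of FOXA1 was concentrated on the gene. In the 10 kb on either side of it, 50.4% and 48.4% of bases lay under peaks, against 19.3% and 18.7% at FOXA3 and 0% and 1.87% at FOXA2. From 50 to 100 kb the order turned, with 3.69% and 4.22% at FOXA1 and 15.9% and 16.7% at FOXA3. FOXA2 stayed below the median of coding genes in every bin outside its gene body, and had no peak at all from 10 to 25 kb in either replicate.

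The distal regions of FOXA1 included several as tall as many promoters. Of its 33 distal regions 8 had a mean height of at least 100, against 2 of 26 at FOXA3 and 0 of 3 at FOXA2. The limit of 100 was not a planned setting, and the share of all distal regions that reach it is not given. Over all peaks, distal or not, a height of 101 stood at percentile 79.4 in replicate 1, and 109 at percentile 80.6 in replicate 2. Heights of this size are thus not rare among peaks. The highest, chr14:37597537-37600544, lay 3.79 kb upstream in a TTC6 intron and reached 317 and 344. The next, chr14:37650080-37651366, lay 55.5 kb upstream in a TTC6 intron and reached 328 and 332. In replicate 1 and in replicate 2 the intervals of both overlapped that of the FOXA1 start-site peak.

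The other 3 of the 5 highest lay on both sides of the gene. A region whose middle lay in a noncoding part of a MIPOL1 exon, chr14:37546623-37547535, 48.2 kb downstream, reached 259 and 258. A region 28.6 kb upstream, chr14:37623466-37624331, reached 193 and 205. An intergenic one 10.8 kb downstream, chr14:37583195-37585653, reached 175 and 211. All 5 were seen at like height in both replicates, and which gene any of them serves was not measured.

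Around FOXA3 the highest distal regions were a pair that stood apart from the rest. An intergenic region 63.5 kb downstream, chr19:45927623-45928102, reached 256 and 249, and a SYMPK intronic one 3.36 kb upstream, chr19:45860705-45861235, reached 200 and 214. The next were lower, with 92 and 91 at chr19:45882697-45883679, 74 and 76 in an intron of the neuronal splicing factor gene NOVA2, and 62 and 73 in a SYMPK intron. The median height over distal regions was 48 at FOXA1 and 45.8 at FOXA3.

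The FOXA2 locus was nearly bare. Its 3 distal regions reached 32 and 21, 20 and 30, and 20 and 16, at 89.1 kb upstream, 38.8 kb upstream and 94.2 kb downstream. Its tallest region, chr20:22683974-22684420 with 104 and 92 reads, lay 99.6 kb upstream within 1 kb of starts of the noncoding genes LINC01747 and ENSG00000283072. That is the very end of the window. A region with 141 and 159 reads began 660 bp outside it, whereas a window of 50 kb on either side held 2 regions.

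The ends of the other windows also lay near accessible regions. At FOXA1 the nearest shared regions outside lay 5407 and 9509 bp away, with heights of 20 and 20 and of 21 and 28. At FOXA3 they lay 9869 and 129 bp away, with 42 and 29 and with 29 and 44. The last regions inside had 21 and 49 and 17 and 20 at FOXA1, and 546 and 600 and 25 and 22 at FOXA3.

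FOX motif matches were frequent in the distal regions of FOXA1. In windows of 300 bases around the middle, 12 of 33 (36.4%) held TGTTTAC or TATTTAC on either strand, against 24061 of 172293 distal regions in the genome (14%). At FOXA3 it was 2 of 26 (7.69%) and at FOXA2 0 of 3. None of the 6 start-site regions at FOXA1 held a match, against 7.30% of all start-site regions. With 33 and 26 regions each count is small, and a match describes letters, not binding.

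Base composition moved with these counts. The median GC content of the distal windows was 41.7% at FOXA1, 55.8% at FOXA3 and 52% at FOXA2, against 47.7% over all distal regions, and FOX motifs are rich in A and T. Below 45% GC, a limit chosen after the values were seen, 10 of 23 FOXA1 regions held a match against 23.7% of all such regions. At or above it these were 2 of 10 against 8.80%. In windows of 100 bases, 7 of 33 FOXA1 regions (21.2%) held a match against 6.18% in the genome.

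The 13 matches at FOXA1 and 2 of the 3 in distal regions of FOXA3 are shown with 7 bases on either side, 5′ to 3′ on the strand of the motif, with the match in capitals and the distance of the region's middle from the canonical start site. At FOXA1 7 read TGTTTAC and 6 read TATTTAC, and they lay on both sides of the gene.
FOXA1, 70 kb downstream, chr14:37525263-37525283, strand minus: tgattgcTGTTTACtggtcag
FOXA1, 65.4 kb downstream, chr14:37529763-37529783, strand minus: tagattaTATTTACtcttgta
FOXA1, 48.2 kb downstream, chr14:37547032-37547052, strand minus: gctttggTGTTTACacagtgt
FOXA1, 43.2 kb downstream, chr14:37552044-37552064, strand minus: cacagtcTGTTTACatttacc
FOXA1, 4.66 kb downstream, chr14:37590658-37590678, strand minus: ctccgtaTATTTACataacat
FOXA1, 5.83 kb upstream, chr14:37601090-37601110, strand minus: ctgcattTGTTTACtttgatc
FOXA1, 21.1 kb upstream, chr14:37616446-37616466, strand plus: ctgctttTGTTTACtctgaag
FOXA1, 25.3 kb upstream, chr14:37620558-37620578, strand plus: ctatttaTATTTACtgctagc
FOXA1, 46.1 kb upstream, chr14:37641262-37641282, strand minus: ttcaggcTGTTTACagctaca
FOXA1, 46.1 kb upstream, chr14:37641322-37641342, strand minus: acccacaTATTTACctattct
FOXA1, 47.5 kb upstream, chr14:37642892-37642912, strand minus: ttttctaTGTTTACatagttt
FOXA1, 50.3 kb upstream, chr14:37645409-37645429, strand minus: tttcattTATTTACtgacatt
FOXA1, 63.2 kb upstream, chr14:37658304-37658324, strand plus: caacactTATTTACattacac
FOXA3, 14 kb downstream, chr19:45878186-45878206, strand plus: ctgtgacTGTTTACgtctctg
FOXA3, 14 kb downstream, chr19:45878427-45878447, strand minus: atcttggTGTTTACctggggc

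Of the FOXA1 regions with a FOX match the tallest was the MIPOL1 region, at 258.5 on average, and the others had mean heights of 22 to 99. At FOXA3 the matches lay in the region 3.36 kb upstream, with a mean height of 207, and in the one 14 kb downstream, with 65.5. The match not shown is the one in the taller region. The 2 highest distal regions of FOXA1, with means of 330.5 and 330, held a GATA match in one case and an AP-1 match in the other.

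Matches to the other motifs at FOXA1 lay within 5 percentage points of their genome-wide shares. GATA matches occurred in 8 of 33 distal regions (24.2%, against 24.1% over all), AP-1 in 5 (15.2%, against 14.6%) and AP-2 in 3 (9.09%, against 13.6%). At FOXA3 they occurred in 3, 3 and 5 of 26 (11.5%, 11.5% and 19.2%). At FOXA2 a single distal region, the one 89.1 kb upstream, held a GATA match. No window of the 3 loci held the full estrogen response element, which occurred in 0.101% of all distal regions.

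The promoter sequences of FOXA1 and FOXA3 were both rich in GC. Of 35116 RefSeq promoters of 300 bases, FOXA1 with 69.3% GC stood at percentile 78.5 and FOXA3 with 76.3% at 92.9, beside a median of 58.7%. The ratio of observed to expected CpG was 0.966 and 0.849. The FOXA3 promoter held 2 AP-2 matches and 1 AP-1 match, motifs found in 23.2% and 7.71% of promoters, and the FOXA1 promoter held none of the 5. These values set side by side a promoter under a tall peak and one with no peak over its start. FOXA2 has no entry in the promoter table used.

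Luminal genes placed the FOXA1 height in context. All 16 genes of a list of luminal partners and markers had a start-site peak in both replicates, against 79.3% of coding genes. Their median height was 396 and 400.5. FOXA1, at 387.5, would rank 10 from the top if added to them. GATA3, a partner of FOXA1, had 209 and 225, ESR1, the estrogen receptor gene, 135 and 146, and KRT8, a luminal keratin gene, 608 and 662. In both replicates the FOXA1 interval lay above the heights of GATA3 and ESR1.

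Of 14 endoderm, liver, lung and gut genes 7 had such a peak in both replicates, against 79.3% of coding genes. ALB, the albumin gene, HNF4A, SOX17, GATA4 and PDX1 had none in either, and CDX2 had one of 13 reads in replicate 2. GATA6, an endoderm factor, had 281 and 275, and NKX2-1, a lung and thyroid factor, 154 and 160. APOA1 had 357 and 354, but as at FOXA3 the peak did not lie over its canonical start.

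Among 49 other genes selected by forkhead symbols, 30 (61.2%) had a start-site peak in both replicates, against 79.3% of coding genes. Of the 49 genes, 16 had none in either replicate. The symbol rule also took FOXL2NB, a neighbour of FOXL2 and not a forkhead gene. Only FOXP4, with 462 and 492, exceeded the mean height given to FOXA3, and FOXP4, FOXN2 (418 and 450) and FOXH1 (374 and 406) exceeded the mean of FOXA1. FOXH1 and FOXA1 differed by less than the spread between replicates.

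**Figure D4:**
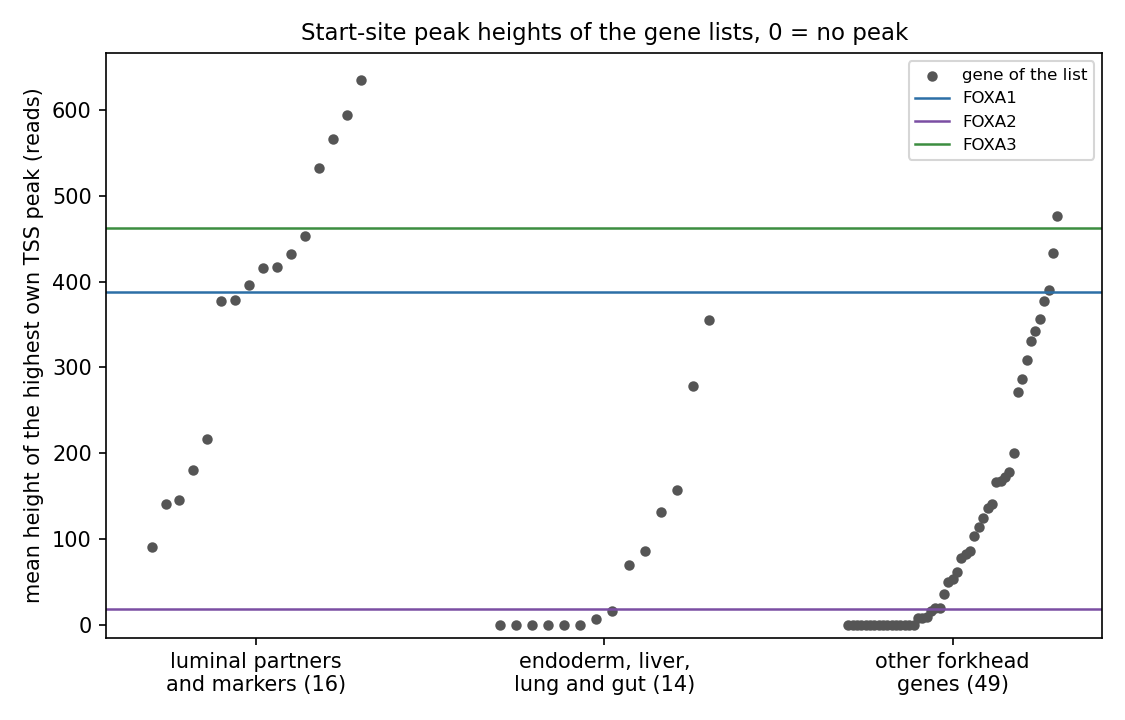
Mean height over 2 replicates of the highest peak within 1 kb of a start site, in reads, for each gene of 3 lists, ordered by height within a list, with 0 for no peak. Horizontal lines are FOXA1 at 387.5, FOXA2 at 18.5 and FOXA3 at 463. The 16 luminal genes all lie above the FOXA2 line.

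The cell identity given in the labels was checked on 4 marker lists. All 8 luminal markers had a start-site peak in both replicates, with a median height of 400 and 397.5. Among all coding genes 79.3% had such a peak, and the median height, with 0 for no peak, was 168 and 180. The 4 basal markers (KRT5, KRT14, KRT17 and TP63) also had one, at a median of 34 and 35.5. So did the 4 mesenchymal markers (VIM, ZEB1, COL1A1 and COL1A2), at 162.5 and 175, near the median of all coding genes. Having a peak therefore did not tell these lists apart, while the median heights differed. Heights of single genes overlapped between lists. COL1A1 (318 and 303) and VIM (226 and 247) exceeded the luminal markers GATA3 and ESR1, while ZEB1 and COL1A2 did not. The canonical start lay under a peak in both replicates at all 8 luminal markers, KRT17 and ZEB1. It did not at KRT5, KRT14, TP63, VIM, COL1A1 and COL1A2. The blood markers PTPRC, CD3E and SPI1 had none in either replicate.

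The genes with the most similar profiles came from unrelated families. Likeness was the distance over 6 standardised values, namely start-site height, number of distal peaks and covered bases in each of the 2 replicates, over all protein-coding genes. Nearest to FOXA1 were COL18A1, a basement membrane collagen gene with 401 and 460 at its start, MRPS2, a mitochondrial ribosomal protein gene with 386 and 438, and TENT5B with 371 and 395. Nearest to FOXA2 were ARL14EPL (27 and 23), the imprinted gene DIRAS3 (23 and 33) and the olfactory receptor gene OR14A16 (32 and 20). Nearest to FOXA3 were ARL16 and HGS, which had the same start-site heights of 424 and 435, and DDX39A, an RNA helicase gene with 450 and 482.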

How the data were processed

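ATAC-seq peaks of 2 biological replicates of CAMA-1 were used. Per the labels and the study's methods, the authors used Trim Galore 0.6.5, Bowtie2 2.3.5.1 and MACS2 2.2.6 on hg38, calling peaks in each replicate alone. The deposited files give, per peak, a score, a fold enrichment ratio, and −log10 p and q. In 100% of peaks the score equalled 10 times −log10 q, rounded down. The read totals that the study lists for each library were not used here, and depth enters only through peak heights. Height was recovered from the ratio (height + 1)/(background + 1), with a background of 3.35 and 3.52 reads, after checking on simulated data. Recovered heights were whole within 7.91e-05.

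GENCODE release 44 and hg38 were used, with Python 3.11.15, numpy 2.4.6 and scipy 1.17.1. Canonical starts follow the annotation's Ensembl canonical tag. Named genes were the FOXA genes, genes with a start within 1 kb of a described peak, list genes and, per FOXA gene, the 3 with the nearest profile. Regions described singly were start-site regions and the 5 highest distal ones, and others were named after their values were seen. Some items of the lists and regions are not reported here. The members and lists were chosen with earlier results of these data known. Alternatives varied the window, peak threshold, overlap, start-site rule, motif window and replicate.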

Additional observations from a re-analysis of the deposited data

How the results depend on the processing

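Of 78 values recomputed under alternatives for 19 results, 47 stayed within the spread between replicates or within 1.5 times the count, 30 moved and 1 changed direction, the ratio of FOXA3 to FOXA1 start-site heights, from 1.2 to 0.983 on the local scale. With 50 kb windows the shared regions of FOXA2 and FOXA3 numbered 2 and 26, and covered bases were 23.7, 0.815 and 14 kb at FOXA1, FOXA2 and FOXA3. With 200 kb windows FOXA2 and FOXA3 had 20 and 79 regions, and 30.9, 7.78 and 54.8 kb were covered. With a −log10 q of at least 10, FOXA2 had 2 regions, and 26.2, 0.978 and 28.2 kb were covered. With the 50000 strongest peaks of each replicate there were 10, 0 and 11 regions and 15.5, 0.175 and 16 kb. Leaving out 1 replicate gave 6 to 10 peaks at FOXA2 and a share of genes with a start-site peak of 80.1% to 80.6%. That share was 45.7% over all annotated genes, 73.2% within 100 bp, 85% within 3 kb and, added after the data were seen, 78.8% where no other coding start was nearer. In 100-base windows, 7 distal regions at FOXA1 and 0 at FOXA3 held a FOX match.

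No start-site height could be given in both replicates for FOXA2 within 100 bp, at its most 5′ start, at a −log10 q of at least 10 or among the 50000 strongest peaks, nor for FOXA3 within 100 bp or where no other coding start was nearer. No paired analysis was possible because a single condition was sampled. Heights under about 20 reads lie near the calling floor of 11, so an uncalled region was not detectable and is not shown to be closed.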
